A study of Drosophila melanogaster with 2 samples.

Results

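The small heat shock genes of the 67B cluster, with Hsp83 and the heat shock factor gene Hsf, were examined for occupancy by a CG15336-eGFP fusion protein in Drosophila melanogaster. The 9 members, of 13945 protein-coding genes on the chromosome arms, were Hsp22, Hsp23, Hsp26, Hsp27, Hsp67Ba, Hsp67Bb, Hsp67Bc, Hsp83 and Hsf. They were selected on the peaks described here, since the signal of the Hsp27 promoter peak was already known to be among the highest of the series, so their counts and signals are descriptions and carry no test. A peak was assigned to a member when it reached the interval from 2000 bp upstream of the transcript start to the end of the gene. Chromatin came from whole transgenic prepupae aged 2 days that carried the fusion of CG15336, a protein-coding gene known by its annotation number, with green fluorescent protein. Fragments of 200 to 800 bp, made by sonication, were immunoprecipitated through the tag with an antibody to it. The series held 1 group with 2 biological replicates and no second genotype or treatment, and no heat shock is named in the labels. The strain is named CG15336-GFP, and what drives the fusion is not stated. Whole animals mix all tissues, so a peak cannot be placed in a cell type.

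Small heat shock proteins are ATP-independent chaperones that hold unfolding proteins in a soluble state, and Hsp90 chaperones, of which Hsp83 is the cytosolic one in flies, use ATP to complete the folding of kinases and steroid receptors. After heat stress the heat shock factor trimerizes and binds heat shock elements, arrays of inverted GAA units, upstream of these genes, whose promoters are also known for paused RNA polymerase and for GAGA factor. In Drosophila the small heat shock genes are in addition switched on without heat by the moulting hormone ecdysone around pupariation.

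The conservative peak list, made by the authors from both replicates at an irreproducible discovery rate (IDR) of 0.01, held 9295 peaks, and the lists of the replicates held 6678 peaks in replicate 1 and 8219 in replicate 2. The authors gave each peak a signal in an unstated unit, so levels were compared only within a list, by rank or by percentile, the percent of peaks of the list with a lower signal. The control was not used here, and peak lists do not show how deeply the libraries were sequenced.

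In the conservative list 7 of the 9 members (77.8%) had a peak in their interval, against 34.3% of all protein-coding genes. A summit within 500 bp of a transcript start was found at 5 of the 9, Hsp22, Hsp23, Hsp26, Hsp27 and Hsp83, against 21.4% of all protein-coding genes. The 7 members shared 6 separate peaks, because the peak inside the Hsp22 locus also fell in the intervals of Hsp67Bb and Hsp67Bc, so the 9 genes are not independent of each other. Hsp67Ba and Hsf had no conservative peak. Of the 6 peaks, 5 overlapped a thresholded peak of both replicates, against 58.8% of all conservative peaks.

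The reference sequence at these summits is shown first, because the summits differ in their letters. Sequences are from the RefSeq Release 6 genome, read 5′ to 3′. The peak upstream of Hsp26 (3L:9377428-9377723, minus strand, the direction in which Hsp26 is transcribed) is given without its last bases, which belong to the transcript. Capitals mark 3 heat shock element pairs, GAANNTTC or TTCNNGAA, together with runs of GAGAG, which read CTCTC on this strand, and a TATAAA.
Hsp26 peak: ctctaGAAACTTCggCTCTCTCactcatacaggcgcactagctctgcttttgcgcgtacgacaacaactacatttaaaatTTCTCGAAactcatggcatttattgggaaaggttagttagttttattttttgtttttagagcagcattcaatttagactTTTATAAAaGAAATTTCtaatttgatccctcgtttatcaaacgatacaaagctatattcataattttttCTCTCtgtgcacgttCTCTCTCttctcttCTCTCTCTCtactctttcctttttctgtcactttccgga

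The 101 bp around the Hsp23 summit (3L:9381690-9381790, plus strand) and 30 bp beside the summit at the start of Hsp83 (3L:3193137-3193166, plus strand) show the other summits with a heat shock element pair within 50 bp, in capitals. Each lies in the direction of transcription of its gene.
Hsp23 summit: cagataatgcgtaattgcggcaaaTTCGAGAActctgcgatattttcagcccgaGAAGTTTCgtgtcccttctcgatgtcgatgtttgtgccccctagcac
Hsp83 start: agaagcctctaGAAGTTTCtagagacttcc

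The remaining summits held no such pair within 50 bp, and their longest run of A and T alone is in capitals. They are the 101 bp around the Hsp27 summit (3L:9383846-9383946, plus strand), the 101 bp around the summit in the Hsp83 intron (3L:3194212-3194312, plus strand) and 30 bp at the Hsp22 summit (3L:9373485-9373514, plus strand), where the run of 32 bp begins to the left of the stretch shown.
Hsp27 summit: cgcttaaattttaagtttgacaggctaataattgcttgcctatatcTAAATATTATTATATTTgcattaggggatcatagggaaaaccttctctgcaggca
Hsp83 intron: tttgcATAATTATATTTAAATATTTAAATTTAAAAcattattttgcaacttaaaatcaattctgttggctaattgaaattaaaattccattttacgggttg
Hsp22 summit: ATTAATTAATTAATTAATTATTAATAgcta

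Hsp27, which encodes a small heat shock protein found mainly in the nucleus, carried the highest peak of the 9 genes. Its peak, 3L:9383712-9384097, covered the transcript start at 9384063, and its summit lay 167 bp upstream. The peak had a signal of 1530 and rank 25 of 9295 in the conservative list. It had a signal of 792 and rank 15 in replicate 1 and a signal of 727 and rank 37 in replicate 2. The replicate summits stood 8 bp apart. The peaks just above and just below it in the conservative list, with signals of 1544 and 1529, lay nearest to CG14100 and CG9147.

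Hsp26, transcribed in the opposite direction to Hsp27 and encoding a cytosolic small heat shock protein, had the second highest peak of the cluster. Its peak, 3L:9377426-9377723, ended at the transcript start and had its summit 143 bp upstream, with a signal of 747 and rank 220. In replicate 1 the signal was 343 with rank 246, and in replicate 2 it was 392 with rank 239. The percentile was therefore 96.3 in replicate 1 and 97.1 in replicate 2, and the replicate summits were 21 bp apart.

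Hsp22 encodes the small heat shock protein of the mitochondrial matrix and shares a dicistronic transcript with Hsp67Bb, which is annotated under CG4456 and belongs to the rhodanese family. The peak of this locus, 3L:9373397-9373610, lay inside the dicistronic transcript, in the 3′ untranslated region annotated for CG4456 and the 5′ untranslated region annotated for Hsp22. Its summit was 569 bp downstream of the upstream start of Hsp22 and 497 bp upstream of the inner start at 9373997, just inside the limit of 500 bp. The signal was 345 and the rank 1071 in the conservative list. Replicate 1 gave a signal of 176 with rank 974, and replicate 2 a signal of 164 with rank 1287. At 214 bp this was the narrowest of the 6 peaks, while 71.8% of all conservative peaks had the commonest width of 384 bp.

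The same peak stood 1003 bp upstream of the start of Hsp67Bc, which encodes a small heat shock protein known from selective autophagy together with the cochaperone Starvin. No other thresholded peak fell in the interval of Hsp67Bc. A ranked peak over the start of Hsp67Bc, with its summit 14 bp inside the gene, had a signal of 32.0 and rank 21497 of 68761, and its −log10 IDR of 0.85 was below the authors' threshold of 2.00.

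Hsp23 encodes a cytosolic small heat shock protein and had the weakest of the 6 peaks. The peak, 3L:9381548-9381931, covered the start at 9381882 with its summit 142 bp upstream. It had a signal of 95.0, rank 6195 and a −log10 IDR of 2.90. In replicate 1 it passed the threshold with a signal of 47.5, rank 5620 and a −log10 IDR of 2.15. In replicate 2 the corresponding ranked peak, with a signal of 52.8, had a −log10 IDR of 1.66 and did not pass. The call at Hsp23 thus rested on the list made from both replicates and on replicate 1.

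Hsp67Ba, a small heat shock gene whose product is little studied, lay between these peaks. The Hsp23 peak of the conservative list began 14 bp beyond the upstream edge of its interval, and the Hsp26 peak ended 79 bp short of its gene end. A peak with its summit 833 bp upstream of Hsp67Ba, inside the antisense RNA gene asRNA:CR43481, passed in replicate 1 and not in replicate 2, with a signal of 23.4 and rank 6396 of 6678. In replicate 1 the Hsp23 peak, with a signal of 47.5, also reached 36 bp into the interval of Hsp67Ba, with its summit outside it. Replicate 1 counted 8 members with a peak, against 27.5% of all protein-coding genes, whereas replicate 2 counted 6, against 32.3%. The less strict list of both replicates counted 8, against 37.7%, and placed summits 628 and 863 bp upstream of Hsp67Ba with signals of 48.9 and 48.3. That list held 10787 peaks but only 8418 of the 9295 conservative ones. It is thus a differing list and not the conservative list with peaks added.

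**Figure D1:**
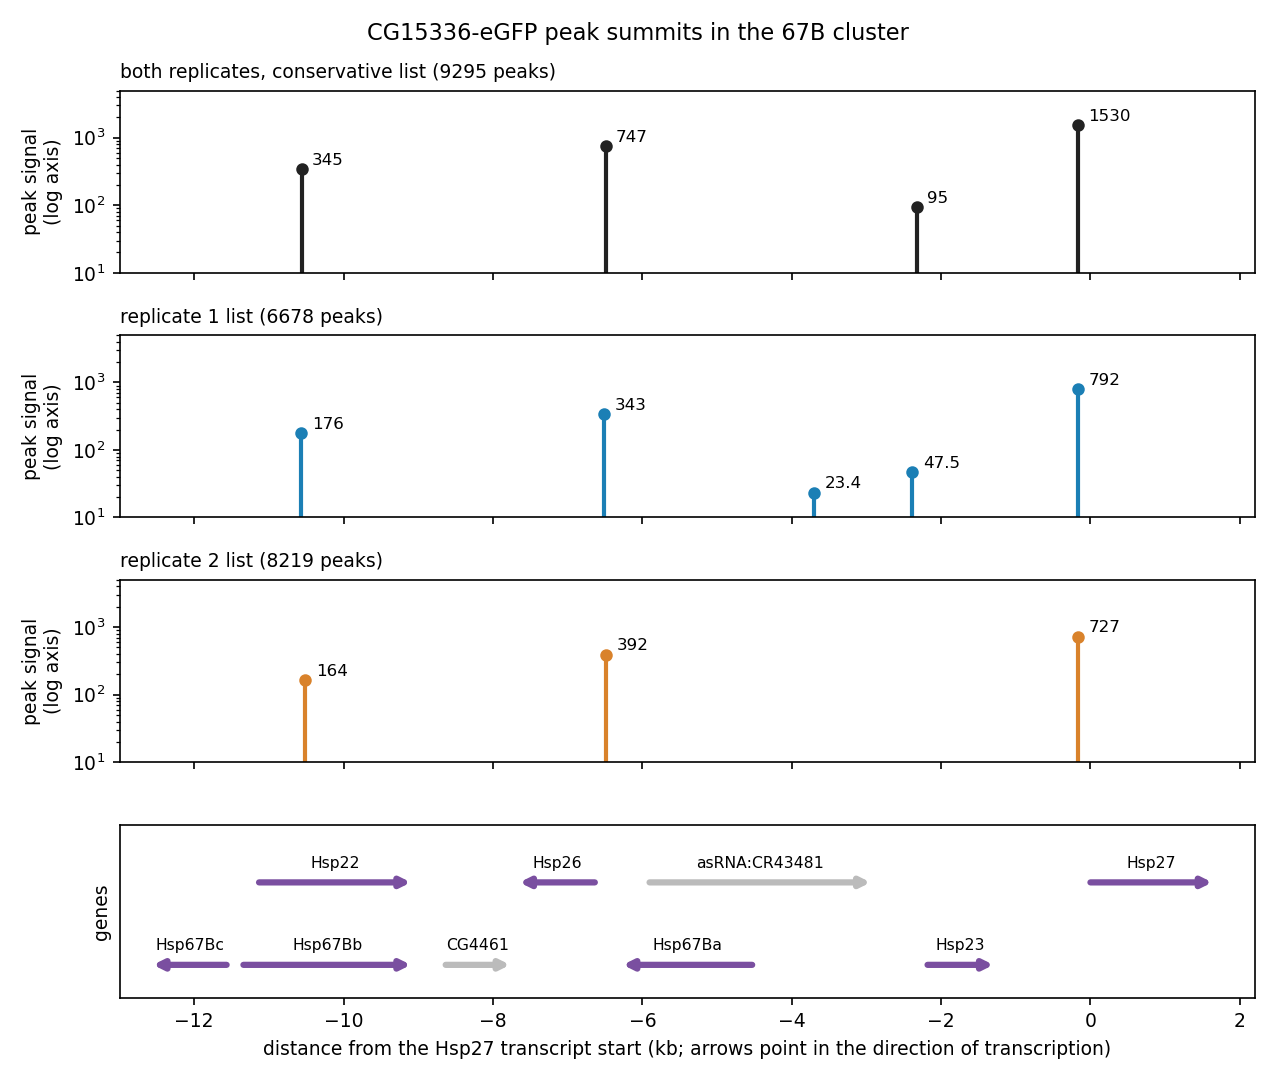
Peak summits in the 67B cluster plotted against distance from the Hsp27 transcript start (kb), with the authors' signal on a log axis for the conservative list (top), replicate 1 and replicate 2, and the genes below (members in purple, others in grey, arrows in the direction of transcription). The peaks at Hsp27, Hsp26 and Hsp22 stand in every list in the same order of signal (1530, 747 and 345 in the conservative list), while the peak at Hsp23 is missing from the replicate 2 list and a peak of 23.4 near Hsp67Ba is present in replicate 1 only.

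Across the cluster the members' starts spanned 11567 bp, from the start of Hsp67Bc to that of Hsp27. The span held 4 conservative summits, or 2892 bp per summit, against 14404 bp per summit over the arms. These figures per bp do not allow for gene density, as the span also held the starts of 9 genes, 8 of them protein-coding. Set against genes, it had 4 summits for 8 protein-coding genes, and the arms had 9295 for 13945. The summits at Hsp22 and Hsp26 were 4070 bp apart, those at Hsp26 and Hsp23 4170 bp and those at Hsp23 and Hsp27 2156 bp. Both other genes with a start in this span had a peak by the same rule, but each through a member peak already counted. CG4461, a further small heat shock gene, had the Hsp22 peak 1930 bp upstream of it, and asRNA:CR43481 had the Hsp26 peak. The next conservative peaks outside lay nearest to CG4452 on the Hsp67Bc side, with a signal of 173, and to CG4080, 12692 bp past the end of Hsp27, with a signal of 75.3.

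Hsp83 lies elsewhere on 3L, at 3192969 to 3197059 on the plus strand, and had a pair of peaks. The peak at its start, 3L:3192935-3193318, covered both annotated starts and had its summit 89 bp upstream of the inner start at 3193216, in the 5′ untranslated region of the outer transcript. Its signal was 173 with rank 3000 in the conservative list. Its place in the replicates differed, with a signal of 58.7 and rank 4599 in replicate 1 (percentile 31.1) and a signal of 118 and rank 2091 in replicate 2 (percentile 74.6). The summits nevertheless lay 5 bp apart.

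The other Hsp83 peak was the second highest of the 6. It lay in the intron, 3L:3194120-3194421, with its summit 1046 bp downstream of the inner start and 237 bp before the first coding base, in an intron of 1131 bp. Its signal was 974 with rank 110 in the conservative list. Replicate 1 gave a signal of 406 with rank 162, and replicate 2 a signal of 572 with rank 85. In each of these lists it ranked above the peak at the Hsp83 start.

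**Figure D2:**
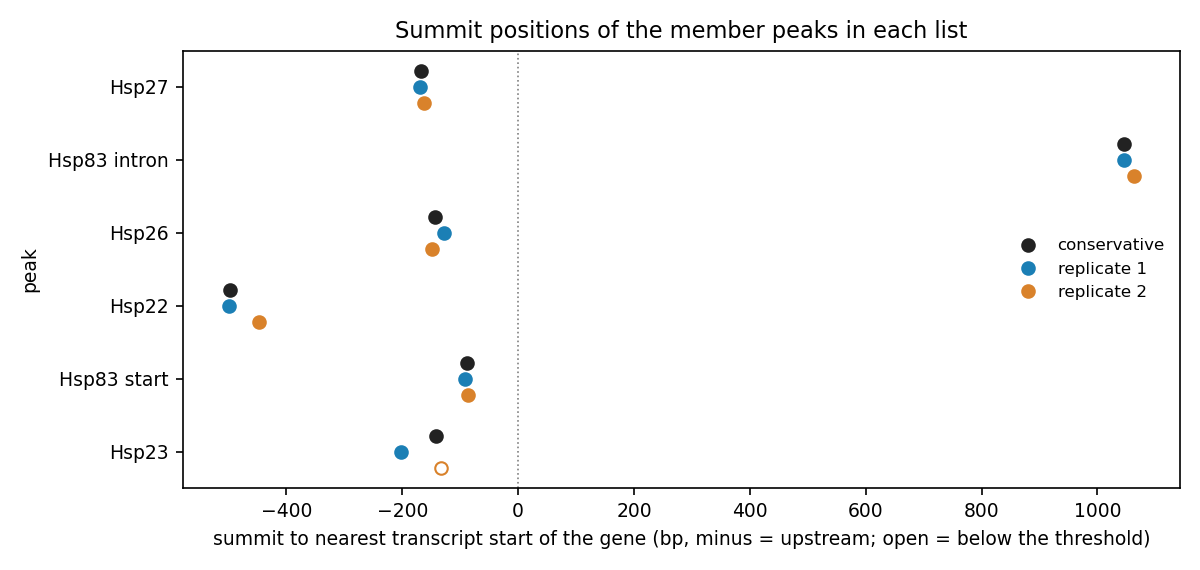
Distance in bp from each member summit to the nearest transcript start of its gene, minus meaning upstream, for the conservative list, replicate 1 and replicate 2 (an open point is a ranked peak below the authors' threshold). Summits at Hsp27, Hsp26, Hsp23 and the Hsp83 start lie upstream within 203 bp of a start in each list, the Hsp22 summit lies 447 to 500 bp upstream and the Hsp83 intron summit 1046 to 1064 bp downstream.

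Hsf, the gene of the heat shock factor itself, on 2R at 18130303 to 18134634 on the minus strand, had no peak in any thresholded list. The ranked conservative list held 5 peaks in its interval, the highest with a signal of 44.2 (percentile 78.4 of the ranked peaks), and the highest −log10 IDR among them was 0.75. In replicate 1 there were 4 ranked peaks with a −log10 IDR of at most 0.49. In replicate 2 there were 7, and the one with the highest −log10 IDR, 1.98, had a signal of 7.06. A ranked peak overlapping it had nearly the same −log10 IDR, also 1.98, with a signal of 23.4 (percentile 73.6 of the ranked peaks). Both were just below the authors' threshold of 2.00. The nearest conservative peak lay 4079 bp beyond the upstream edge of the interval, with its summit nearest to pAbp.

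**Figure D3:**
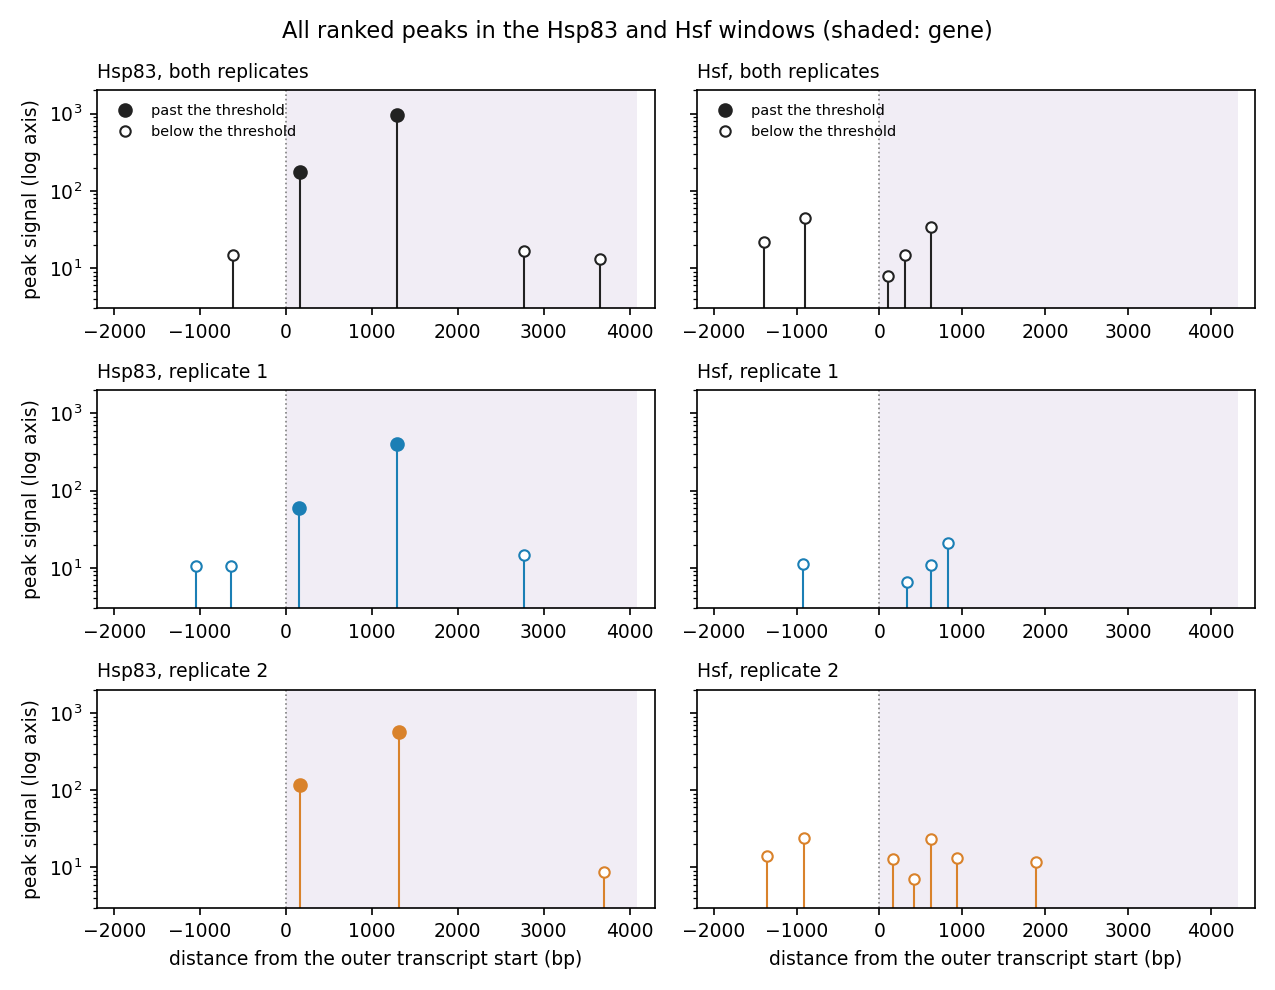
All ranked peaks in the intervals of Hsp83 (left) and Hsf (right), plotted by distance from the outer transcript start (bp) and the authors' signal on a log axis, for both replicates together and for each replicate. Filled points passed the authors' threshold and open points did not, and the shaded range is the gene. Each Hsp83 panel has 2 filled points, the higher in the intron (974, 406 and 572), and the Hsf panels have open points alone, of at most 44.2.

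The heat shock element pairs were counted within 50 bp of the summits, with the same windows at all 9295 conservative summits as the background. A pair is GAANNTTC or TTCNNGAA, each of which is its own reverse complement, so both strands were covered. It was present at 3 of the 6 summits, those of Hsp26, Hsp23 and the Hsp83 start shown above, against 5.25% of all conservative summits. The nearest pair was centred 7.5 bp from the Hsp23 summit, 18.5 bp from that of Hsp26 and 24.5 bp from that at the Hsp83 start. It was 124.5 bp from the summit in the Hsp83 intron and 167.5 bp from that of Hsp27. For Hsp22 the nearest pair found was 312.5 bp from the summit. Beyond 50 bp, pairs were sought only inside the member peaks and in stretches beginning 600 bp before the members' starts. Part of the sequence to the left of the Hsp22 peak lay outside these, and whether it holds a nearer pair was not tested. The signal of the peaks did not order them by nearness to a pair, as Hsp27 and the Hsp83 intron were the highest of the 6 and had no pair within 50 bp.

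Relative to the transcript starts, Hsp22 had pairs centred 83.5 and 184.5 bp upstream of its inner start, 3′ of the peak. The pair upstream of Hsp27 was centred 334.5 bp from the start, inside the peak but on its far side. Hsp67Bc and Hsp67Bb share a pair between their divergent starts, 115.5 bp upstream of Hsp67Bc and 109.5 bp upstream of Hsp67Bb, with no thresholded peak over it. In the 300 bp from 250 bp before to 50 bp after the outer start, a pair was present at 4 of the 9 members, Hsp23, Hsp26, Hsp67Bb and Hsp67Bc, against 16.0% of all protein-coding genes. This window does not reach the pairs upstream of the inner starts of Hsp22 and Hsp83. Hsp83 had a pair centred 64.5 bp upstream of its inner start and another 345.5 bp upstream of its outer start. Hsf, which had no thresholded peak, had a pair centred 386.5 bp upstream of its start. The match is of letters only and says nothing of what bound there.

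GAGAG, the letters bound by GAGA factor, was within 50 bp of 0 of the 6 summits, against 12.5% of all conservative summits. It was present in the 300 bp promoter window of Hsp22, Hsp23 and Hsp26, 3 of the 9 members, against 29.8% of all protein-coding genes. Both counts are near the background. The Hsp26 peak held runs of it centred 77 to 110 bp from the summit on the side of the start, as printed above, and others 134 and 136 bp away on the far side. The Hsp23 peak held 1 match 64 bp from its summit, and the nearest match in the Hsp27 peak was 102 bp from its summit. TATAAA was in the promoter window of 7 of the 9 members, all but Hsp67Ba and Hsf, against 45.9% of all protein-coding genes, and within 50 bp of the summit at Hsp26 alone, against 22.1% of all conservative summits. TATCGATA, the DNA replication-related element, was in the promoter window of Hsp83 alone, against 9.37% of all protein-coding genes. AGGTCA and GGTTCA, single units of ecdysone response elements, were at 0 of the 6 summits, against 1.95% and 2.38% of all conservative summits, shares at which 0 of 6 is near the background. AGGTCA was in the promoter window of Hsp83, 1 of the 9 members, against 5.89% of all protein-coding genes, and GGTTCA in that of Hsp22, likewise 1 of 9, against 8.49%.

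Base composition differed widely between the summits. G and C made up 14.9% of the 101 bp at the Hsp22 summit, 19.8% in the Hsp83 intron, 26.7% at Hsp26, 33.7% at Hsp27, 48.5% at Hsp23 and 49.5% at the Hsp83 start. The median of all conservative summits was 31.7%, with quartiles of 26.7% and 39.6%. Only 0.646% of them were lower than the Hsp22 summit, and the Hsp83 start was higher than 90.5% of them. Relative to windows centred 300 bp to each side, the Hsp22 summit was lower by 26.7 percentage points and the Hsp83 intron summit by 24.8, whereas the Hsp83 start summit was 16.3 points higher. The median difference of all conservative summits was a deficit, at −12.9 points.

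The longest run of A and T alone was 32 bp at Hsp22 and 30 bp in the Hsp83 intron, longer than at 99.5% and 99.2% of all conservative summits. At Hsp27 it was 17 bp, longer than at 86.8%, and it covered the summit itself, from 4 bp to the left to 12 bp to the right. It was 11 bp at Hsp26, 7 bp at Hsp23 and 4 bp at the Hsp83 start, against a median of 10 bp over all conservative summits. The pair of GC-richest summits, Hsp23 and the Hsp83 start, were also the pair of lowest signal among the 6, and both held a heat shock element pair. Hsp26 combined such a pair with a GC content below the median and a signal in the highest 5% of the list. Whether this order of signal and GC content differs from that over all conservative peaks was not tested.

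**Figure D4:**
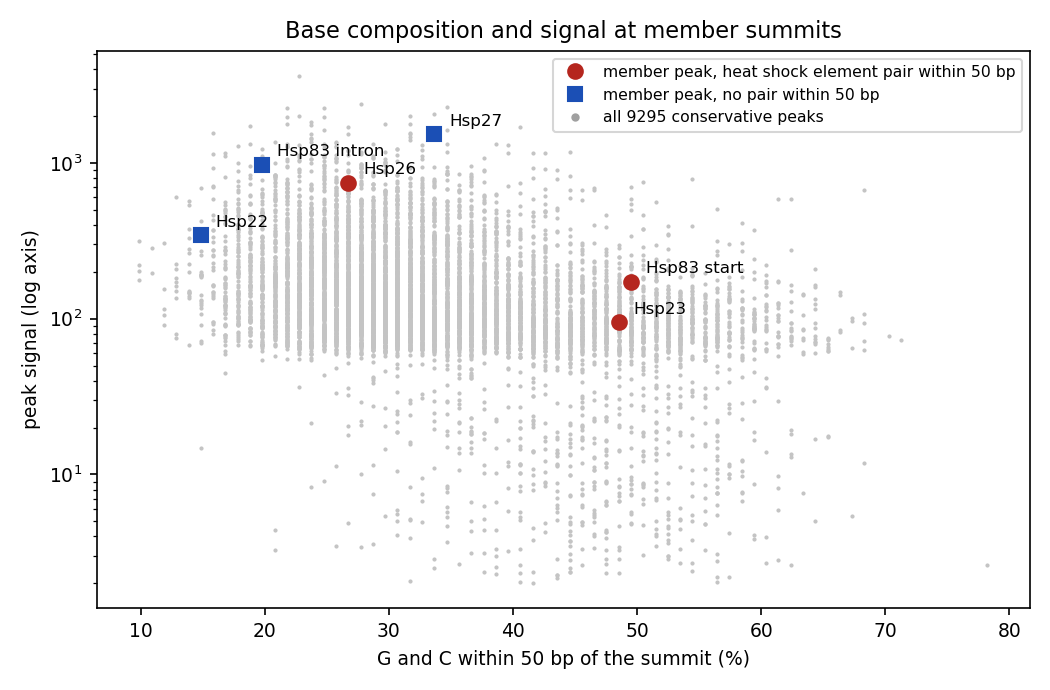
Signal on a log axis against the percent of G and C within 50 bp of the summit, for the 6 member peaks over all 9295 conservative peaks (grey). Red circles hold a heat shock element pair within 50 bp of the summit and blue squares do not. Hsp23 and the Hsp83 start lie at 48.5% and 49.5% with signals of 95.0 and 173, and the other peaks lie at 33.7% or below with signals of 345 or more.

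Other chaperone genes were counted by the same rule, from a list of 45 genes. Of these, 18 (40.0%) had a conservative peak, against 34.3% of all protein-coding genes, so as a whole the list was near the background. The Hsp70 family, the main heat-inducible chaperones of flies and their constitutive relatives, had a peak at 2 of 13 genes. They were Hsc70-5, the mitochondrial Hsp70, with a signal of 333 and a summit 90 bp upstream of its start, and Hsp110 with a signal of 66.4. The Hsp70 count was 4 in the less strict list, 1 in replicate 1 and 3 in replicate 2. Hsp110 had no peak in either replicate's own list, while Hsc70-3 and Hsc70-4 had peaks in the less strict list and in replicate 2. None of the heat-inducible Hsp70 copies or Hsp68 had a peak in any thresholded list, but the copies are near identical and how reads shared between copies were handled is not given in the sources used here, so their lack of peaks is uncertain.

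In the Hsp90 family and its cochaperones 6 of 12 genes had a peak, against 34.3% of all protein-coding genes. The count was 4 in each replicate's own list. The highest was in the interval of Dpit47, with a signal of 997 and rank 106, but its summit lay in an intron of the neighbouring gene Adf1. The next were nudC, a cochaperone gene, with a signal of 217 and a summit nearest to CG9674, and Gp93, the Hsp90 of the endoplasmic reticulum, with a signal of 111 and a summit 135 bp upstream of its start. In the conservative list the Dpit47 peak was the only one of these above the Hsp83 intron peak, and the order differed between the replicates. In replicate 1 the Hsp83 intron peak ranked 162 and the Dpit47 peak 57, and in replicate 2 the Hsp83 intron peak ranked 85 and the Dpit47 peak 184. The Hsp40 family had a peak at 5 of 8 genes, each with a summit within 500 bp of a start, with the highest signals at mrj (451), DnaJ-H (239) and jdp (147). Of all protein-coding genes 34.3% had a peak and 21.4% such a summit. The Hsp40 count was 4 in the less strict list, 3 in replicate 1 and 4 in replicate 2. Csp had its peaks in the conservative list alone. DnaJ-1, the heat-inducible Hsp40 gene, had no peak in any thresholded list.

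Of the other small heat shock genes 3 of 5 had a peak in their interval, against 34.3% of all protein-coding genes. None of these 3 had its summit within 500 bp of a start of its gene. They were CG4461 through the Hsp22 peak, CG14207 with a signal of 290 and a summit 1032 bp upstream, and l(2)efl with a signal of 133 and a summit in the 3′ untranslated region of St3. The l(2)efl summit lay 2179 bp upstream, outside the interval, and neither replicate's own list had a peak there. In each replicate's own list the count was 2 of 5. Hsp60A, the mitochondrial chaperonin gene, was the only one of 4 Hsp60 genes with a conservative peak, with a signal of 118. Hsp60B had a peak in the less strict list, with a signal of 66.2, and in replicate 2, with a signal of 48.7. Among 3 response genes only stv, which encodes Starvin, the partner of Hsp67Bc, had a conservative peak. The stv peak had a signal of 592, rank 372 and a summit 578 bp upstream. Its rank was 249 in replicate 1, and 579 in replicate 2. The noncoding heat shock gene lncRNA:Hsromega had no peak in any thresholded list. CG5446, which encodes a heat shock factor binding protein, had no conservative peak. It had a peak in the less strict list, with a signal of 69.7, and in replicate 2, with a signal of 44.2.

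**Figure D5:**
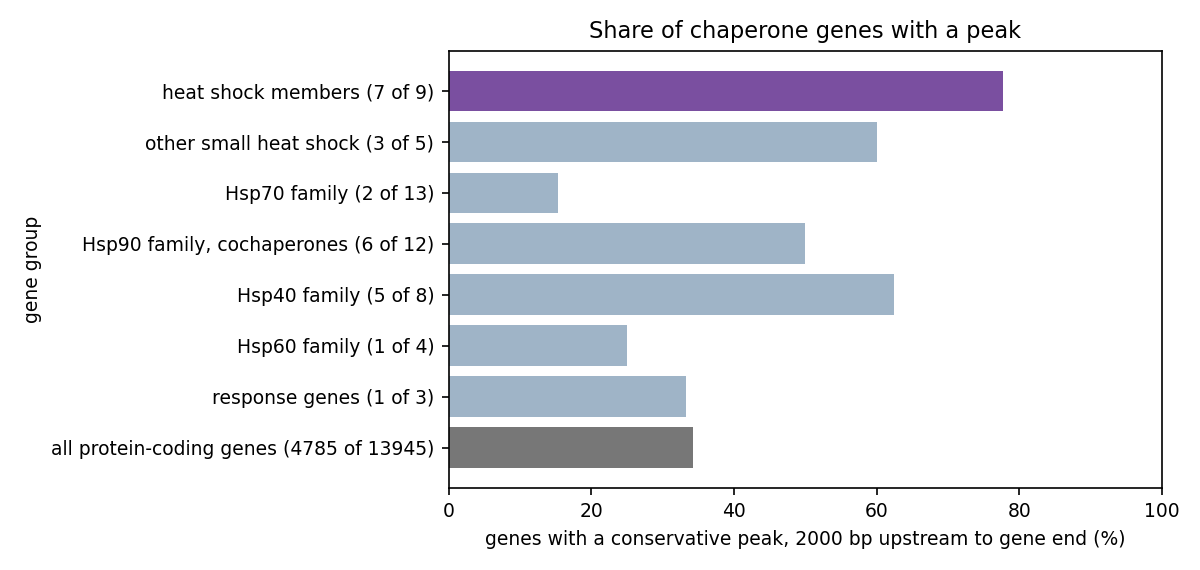
Percent of genes with a conservative peak between 2000 bp upstream of the start and the gene end, for the 9 heat shock members, 6 groups of other chaperone genes and all protein-coding genes. The members stand at 77.8% (7 of 9, chosen with these peaks known), the Hsp70 family at 15.4% (2 of 13) and all protein-coding genes at 34.3%.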

How the data were processed

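Peak lists were analysed from 2 replicate libraries of 1 group. Per the labels, the coordinates are dm6. No source used here names the aligner, the peak caller or the treatment of multiply mapped reads. The authors deposited, for each replicate and for both together, a ranked list and a list past an IDR threshold. Each deposited peak has a signal on an unstated scale and a score, whose lowest value in the conservative list was 830. In the ranked lists the authors also deposited the −log10 of the IDR. Which ranked list of both replicates belongs to the conservative list was inferred from these values. It was taken to be the one in which every conservative peak had at least 2.00, so that minimum follows from the choice.

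The members, gene lists and motifs were chosen with earlier results of these data known. Release 6 was used with the Ensembl release 115 annotation, and 9 of 9 members had the same coordinates in RefSeq. No peak ran past an arm's end. Coordinates are 1-based, and an overlap of 1 bp counted. All 45 chaperone names were matched, 4 of them by synonym. A member's start is its outermost one for the interval and the promoter window, and the nearest annotated one for summit distances. The named genes are the members, genes with a start inside the cluster, up to 3 per chaperone family by signal, genes at the peaks ranked next to the highest member peak, and peaks just beyond the intervals. Percentiles are within a list. Depth is unknown, and no test was run. Alternatives were other lists, each replicate alone, a stricter IDR, and other windows. Python 3.11.15 with pandas 2.3.3, numpy 2.4.6 and matplotlib 3.10.9 was used, and the code was checked on simulated peaks.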

Additional observations from a re-analysis of the deposited data

How the results depend on the processing

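No paired analysis was possible because the series holds 1 group and no result comes from a test. Of 6 summits, those with a heat shock element pair numbered 3 within 50 bp and 5 over the whole peak. In the list of replicate 2 alone the pair was at 2 of 5 summits, and in that of replicate 1 at 3 of 7. GAGAG was at 0 summits within 50 bp, at 2 within 100 bp to each side and at 3 over the whole peak. Leaving out a replicate gave 0 to 1 for GAGAG, and the 1 came without replicate 2. Shares over all conservative peaks are given only for 50 bp, so the counts in wider windows have no background beside them. Mean G and C was 32.2% within 50 bp, 37.6% within 100 bp, 37.0% in the less strict list and 30.7% to 32.2% when a replicate was left out. The longest run of A and T, a measure added after the data were seen, averaged 16.8 bp within 50 bp and 17.8 bp within 100 bp. Members with a peak numbered 7, and 6 to 8 under the alternatives run. In the list of replicate 2 alone Hsp23 was lost, and in that of replicate 1 alone Hsp67Ba was gained. Peak lists without read counts limit how far a weak peak can be told from background.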
